A study of Mus musculus with 45 samples.

Results

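The genes of the Slc22 and Slco families were followed in liver, kidney and brain of mice fed a cholesterol diet with or without a fungal extract or simvastatin. Members were all genes of the expression table whose symbol is Slc22a or Slco followed by a family number, and 40 of the 22080 genes met this rule, 25 of them Slc22 genes and 15 of them Slco genes. RNA was measured on Affymetrix mouse gene arrays, 3 arrays for each of 15 tissue-by-diet groups and 45 arrays in all. The mice were male, of the C57BL/6 strain, 7 weeks old when they entered the study, and were killed at day 43 after food was withdrawn, with 8 mice assigned to each diet. Control mice ate the AIN-93 diet. HCD mice ate AIN-93 with 0.5% cholesterol, and this cholesterol was also in the 3 diets that follow. HCD+Gl-1 added a 1% extract of *Ganoderma lucidum*, a medicinal mushroom, grown on plain oak sawdust. HCD+Gl-2 added a 1% extract of the same mushroom grown on sawdust with acetylsalicylic acid, and HCD+Sim added simvastatin, an inhibitor of cholesterol synthesis, at 0.03 g per 100 g of food.

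Each group had an array of pool A, of pool B (4 mice each) and of pool C, which the methods describe as A and B mixed, so a group's 3 arrays hold just 2 separate sets of mice, and p-values measure the spread between arrays and are too small for a statement about mice. Array medians lay between 6.76 and 6.92 on the log2 scale, and 2 arrays of a group correlated at 0.985 to 0.997 over all genes. Hepatocyte markers averaged 13.11 to 13.26 on the liver arrays and 7.76 to 7.96 on the kidney arrays, and proximal tubule markers averaged 12.10 to 12.23 in kidney and 6.00 to 6.27 in liver. Some liver arrays carried raised markers of other tissues. Acinar pancreas markers averaged 7.56 in pool A and 8.14 in pool B of liver HCD+Sim but 6.16 in pool C and 5.90 to 6.10 in the other liver groups, although C is described as the mix of A and B. Skeletal muscle markers averaged 7.82, 8.23 and 6.73 in the same 3 arrays against 6.42 to 6.86 in the HCD, HCD+Gl-1 and HCD+Gl-2 livers and 7.09 to 7.42 in the Control livers. Squamous epithelium markers averaged 6.44, 6.88 and 5.95 in pools A, B and C of the Control livers and 5.61 to 5.93 in the other liver arrays. Calls of members, and the differences of members named by rule, are also given without pools A and B of liver HCD+Sim and of liver Control, 4 arrays in all, where that changed them. Partner genes and the other liver differences are given with all arrays only. In whole tissue, fewer cells of a type and less RNA per cell cannot be told apart.

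Slc22 proteins are membrane carriers of small charged molecules and include the organic cation transporters (OCT), the organic cation and carnitine transporters (OCTN) and the organic anion transporters (OAT). Slco proteins are the organic anion transporting polypeptides (OATP), which take up larger amphipathic molecules such as bile acids, bilirubin, conjugated steroids, thyroid hormones and many drugs, statins among them. In the kidney these carriers serve secretion and reabsorption along the proximal tubule, in the liver they load hepatocytes from the blood, and in the brain some sit in the capillary wall and the choroid plexus.

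Promoters are shown for members whose values carry the results, as 250 bases before the annotated start (RefSeq, build GRCm38.p6), 5′ to 3′ on the gene's strand. RefSeq promoters were held for 35 of the 40 members, in 40 windows because some genes have several starts. *Slco1b2*, *Slc22a6* and *Slc22a8* were among the members with the widest gaps between liver and kidney, and capitals in the promoters mark CG dinucleotides, the sites of DNA methylation. There were 0 in *Slco1b2* (chr6:141629268-141629517, plus strand), 0 in *Slc22a6* (chr19:8617746-8617995, plus strand) and 1 in *Slc22a8* (chr19:8592932-8593181, plus strand).
Slco1b2: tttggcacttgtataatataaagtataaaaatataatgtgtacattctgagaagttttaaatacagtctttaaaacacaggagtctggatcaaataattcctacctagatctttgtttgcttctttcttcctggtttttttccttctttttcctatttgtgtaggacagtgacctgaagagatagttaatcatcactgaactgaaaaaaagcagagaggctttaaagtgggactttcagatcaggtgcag
Slc22a6: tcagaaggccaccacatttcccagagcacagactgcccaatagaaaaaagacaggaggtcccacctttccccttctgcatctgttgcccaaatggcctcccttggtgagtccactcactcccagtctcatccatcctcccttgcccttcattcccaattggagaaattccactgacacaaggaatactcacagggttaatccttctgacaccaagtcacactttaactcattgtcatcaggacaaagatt
Slc22a8: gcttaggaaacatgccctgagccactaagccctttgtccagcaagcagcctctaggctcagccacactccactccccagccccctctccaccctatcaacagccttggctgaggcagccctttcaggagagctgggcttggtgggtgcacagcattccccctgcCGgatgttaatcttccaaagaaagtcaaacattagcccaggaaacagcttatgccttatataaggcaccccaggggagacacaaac
*Slc22a26* and *Slc22a5* had the diet differences described further on, with a CG count of 1 in *Slc22a26* (chr19:7802668-7802917, minus strand) and 30 in *Slc22a5* (chr11:53891704-53891953, minus strand).
Slc22a26: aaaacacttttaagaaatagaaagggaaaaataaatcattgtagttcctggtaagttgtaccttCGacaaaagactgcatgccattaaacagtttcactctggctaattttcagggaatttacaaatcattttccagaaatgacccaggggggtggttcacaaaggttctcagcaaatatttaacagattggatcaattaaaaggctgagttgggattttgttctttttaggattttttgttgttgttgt
Slc22a5: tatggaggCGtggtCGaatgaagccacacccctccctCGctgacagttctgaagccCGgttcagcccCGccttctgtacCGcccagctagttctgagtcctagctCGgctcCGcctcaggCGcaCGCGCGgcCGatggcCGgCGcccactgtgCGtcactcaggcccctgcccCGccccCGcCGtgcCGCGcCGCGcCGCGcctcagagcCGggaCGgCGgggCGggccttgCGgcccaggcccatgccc
AGGTCA, letters that nuclear receptors bind, was searched on both strands. It stood in 5 of the 40 member windows or 12.5% (*Slc22a14*, *Slc22a27*, *Slco1a1*, *Slco1b2* and *Slco4a1*) and in 14% of all 32851 windows of this length. CAAAGTCCA, letters bound by HNF4 and searched likewise, stood in no member window and in 0.384% of all windows. For members with several windows the highest CG count was taken. The CG count had a median of 6 over all windows, where every window entered. It had a median of 1 over the 9 members with a promoter whose liver and kidney levels differed by more than 4 on the log2 scale, and *Slco4c1* was the exception among them with 19. The median was 4.5 over the 12 other called members and 3.5 over the 14 members not called, so all 3 sets lay below the median of all windows. These matches describe letters in a window and no site was tested.

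Most members differed between liver and kidney, and more of them were higher in kidney. A gene was called where the limma test gave an absolute log2 difference over 0.7 and a Benjamini-Hochberg adjusted p of at most 0.05 over all genes. By this rule 24 of 40 members were called between liver and kidney, 5 higher in liver (6.54% of all genes were called in that direction) and 19 higher in kidney (9.92% of all genes). In all 24 the 15 liver and the 15 kidney arrays did not overlap, and the sign was the same in each of the 5 diets. Neither count was made over all genes, and with little spread between arrays both largely follow from the call. The median difference, liver minus kidney, was -0.47 over the 40 members and 0.07 over all genes. The families split differently. Of the Slc22 genes, 1 was called higher in liver, 15 higher in kidney and 9 were not called, and of the Slco genes 4 were called higher in liver, 4 higher in kidney and 7 were not called. With the 4 liver arrays of raised foreign markers left out, a choice made after seeing the data, 25 members were called, with *Slc22a15* (0.73) added to the liver side.

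**Figure D1:**
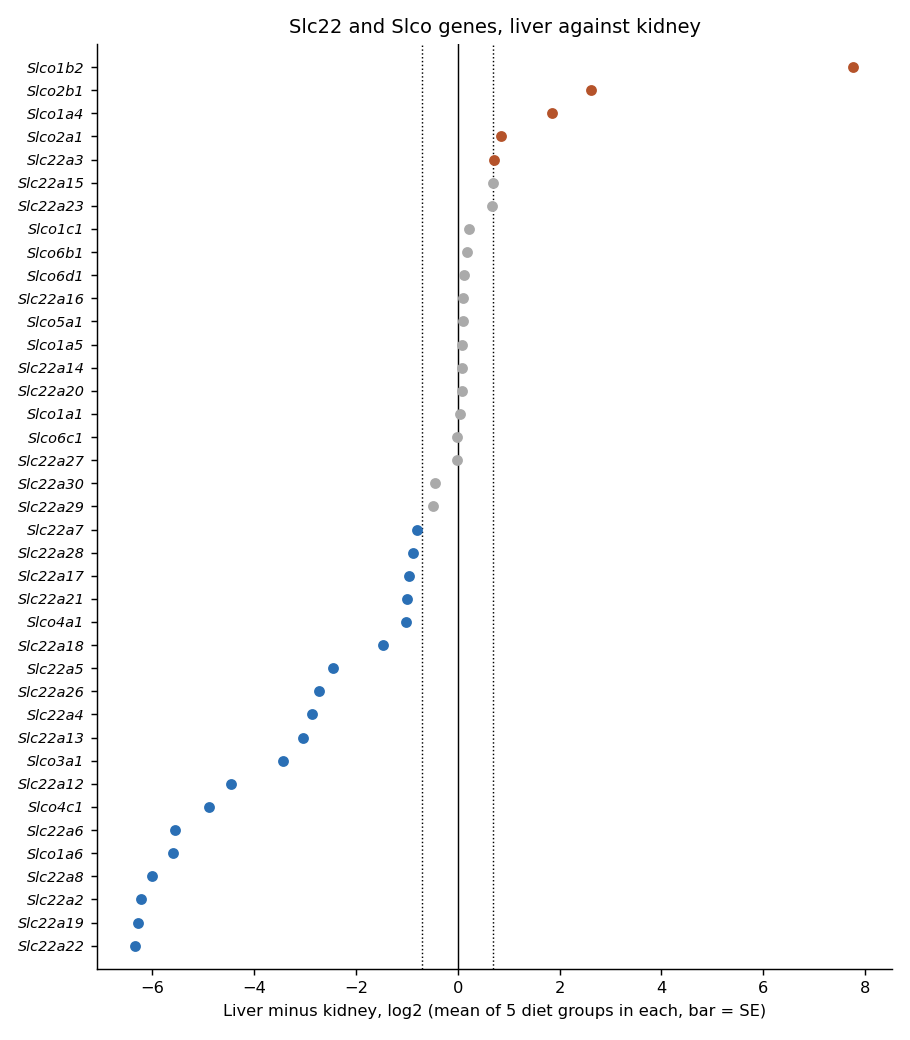
Difference between liver and kidney for the members (1 that was not called is left out), on the log2 scale, each point being the mean of the 5 liver groups minus the mean of the 5 kidney groups with its SE (mostly narrower than the point). Dotted lines stand at 0.7 in either direction. The points run from -6.33 for *Slc22a22* to 7.77 for *Slco1b2*, with 5 called members on the liver side (brown), 19 on the kidney side (blue) and the members not called in grey.

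The liver side was led by *Slco1b2*, the hepatocyte uptake carrier for bile acids, bilirubin and statins. Its 15 liver arrays ran from 11.60 through a median of 12.20 to 12.54, and its kidney arrays from 4.21 through 4.42 to 4.66. Every liver array stood far above every kidney array, and kidney lay as low as brain (4.13 to 4.61). The difference was 7.77 ± 0.06 (SE), a fold of 218 on the array scale with an adjusted p of 5.02e-49. *Slco2b1*, a carrier of steroid sulfates, ran from 9.99 through 10.32 to 10.61 in liver and from 7.57 through 7.69 to 7.91 in kidney, a difference of 2.61 ± 0.04 (adjusted p = 3.89e-39). *Slco1a4*, which moves bile acids and other anions into hepatocytes and across brain capillaries, ran from 7.23 through 7.78 to 8.21 in liver and from 5.54 through 5.88 to 6.14 in kidney, a difference of 1.84 ± 0.08 (adjusted p = 1.37e-22). Its brain arrays (7.64 to 8.20) overlapped those of liver.

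The other 2 members on the liver side were close to the threshold. *Slco2a1*, the prostaglandin transporter, ran from 10.02 through 10.23 to 10.47 in liver and from 9.25 through 9.41 to 9.57 in kidney, a difference of 0.84 ± 0.06. *Slc22a3*, the cation carrier OCT3 that clears monoamines outside neurons, ran from 6.74 through 6.97 to 7.10 in liver and from 6.12 through 6.22 to 6.50 in kidney, a difference of 0.71 ± 0.04. Its call was lost in 4 of the 30 fits that left out 1 array, with values of 0.69 to 0.73 over all 30.

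On the kidney side, the carriers of proximal tubule secretion stood far above liver. *Slc22a2*, the basolateral cation carrier OCT2, ran from 12.28 through 12.46 to 12.57 in kidney and from 5.98 through 6.19 to 6.37 in liver, a difference of -6.23 ± 0.04 (fold of 75, adjusted p = 3.09e-51). *Slc22a8*, the basolateral anion carrier OAT3, ran from 12.22 through 12.40 to 12.55 in kidney and from 5.98 through 6.41 to 6.76 in liver, a difference of -6.00 ± 0.05 (fold of 64). *Slc22a6*, its partner OAT1, ran from 12.38 through 12.51 to 12.58 in kidney and from 6.61 through 6.92 to 7.20 in liver, a difference of -5.56 ± 0.05. The arrays of these 3 genes spread little within kidney, with an SD of 0.0585 to 0.103 over the 15 arrays of all diets.

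Carriers of reabsorption and of narrower substrates followed the same order. *Slc22a22*, a prostaglandin carrier of the kidney, ran from 10.26 through 10.49 to 10.76 in kidney and from 3.98 through 4.12 to 4.58 in liver, a difference of -6.33 ± 0.04 and the lowest of the 40. *Slc22a19*, the anion carrier OAT5, ran from 9.69 through 10.23 to 10.65 in kidney and from 3.69 through 3.95 to 4.22 in liver, a difference of -6.29 ± 0.05. *Slc22a12*, the apical urate exchanger, ran from 11.94 through 12.08 to 12.35 in kidney and from 7.40 through 7.67 to 7.84 in liver, a difference of -4.45 ± 0.05. Neither range came near the other in any of these. *Slc22a13*, a carrier of urate and nicotinate, differed by -3.04 ± 0.04, and *Slc22a18*, a gene of an imprinted region, by -1.47 ± 0.04.

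**Figure D2:**
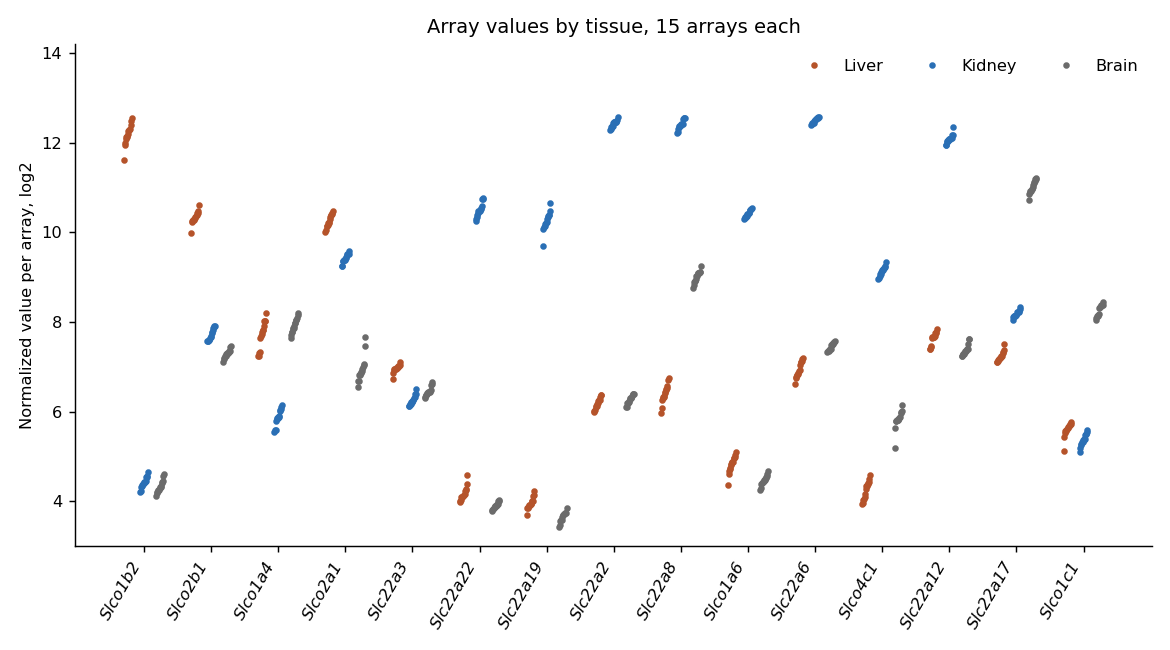
Normalized log2 value of every array for the 5 members called higher in liver than in kidney, the 8 called higher in kidney with the largest difference, and the 2 called higher in brain than in both other tissues, with 15 arrays per tissue. Liver and kidney points are apart for the members called between them, from 7.77 for *Slco1b2* down to 0.71 for *Slc22a3* and from -6.33 for *Slc22a22* to -4.45 for *Slc22a12*. Levels of different genes are not comparable, since each has its own probes.

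Among the Slco genes, *Slco1a6* and *Slco4c1* stood out on the kidney side. *Slco1a6*, an anion carrier of the OATP1 group, ran from 10.30 through 10.41 to 10.54 in kidney and from 4.37 through 4.87 to 5.11 in liver, a difference of -5.59 ± 0.05. *Slco4c1*, a basolateral carrier of thyroid hormone, digoxin and uremic solutes, ran from 8.97 through 9.15 to 9.34 in kidney and from 3.93 through 4.34 to 4.60 in liver, a difference of -4.88 ± 0.06. *Slco3a1*, a carrier of prostaglandins and thyroxine, differed by -3.43 ± 0.05, with brain between the other tissues at a mean of 9.59. *Slco4a1*, a thyroid hormone carrier, differed by -1.03 ± 0.05.

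The OCTN carriers of carnitine and ergothioneine were all higher in kidney. *Slc22a5* (OCTN2), which takes up carnitine for fatty acid oxidation, had a mean of 10.34 in kidney and 7.88 in liver, a difference of -2.45 ± 0.05. *Slc22a4* (OCTN1), the ergothioneine carrier, differed by -2.86 ± 0.07 and *Slc22a21* (OCTN3) by -0.99 ± 0.07. The remaining kidney-side members were *Slc22a26* (-2.72), *Slc22a17* (-0.95), *Slc22a28* (-0.89) and *Slc22a7* (-0.80). *Slc22a7*, the anion carrier OAT2, differed by -0.67 and was not called when pool C was left out of every group.

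The bile acid carrier *Slco1a1* did not separate the organs. It also carries conjugated steroids, and it ran from 10.82 through 11.07 to 11.44 in liver and from 10.63 through 10.97 to 11.41 in kidney, and the difference was 0.03 ± 0.05 (adjusted p = 0.513). The ranges overlapped, and the gene was low in brain, with a mean of 3.83. Just outside the fold threshold lay *Slc22a15* (0.69) and *Slc22a23* (0.66) on the liver side, while *Slc22a3* (0.71) and *Slc22a7* (-0.80) lay just inside it. On the kidney side the nearest members not called, *Slc22a29* (-0.49) and *Slc22a30* (-0.45), lay further from it. Of the 16 members not called, 9 passed the adjusted p alone and 13 had overlapping arrays, counts that were not made over all genes. Of the same 16, 10 had no group mean above the median of the table, namely *Slc22a14*, *Slc22a16*, *Slc22a20*, *Slc22a27*, *Slc22a29*, *Slco1a5*, *Slco5a1* and the 3 Slco6 genes, which are known from testis. The table has no detection flag, so a value as low as that of *Slco1b2* in kidney cannot be told from background, and a fold against it is one of the array scale.

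Brain was the lowest tissue for many members and the highest for few. The highest mean lay in kidney for 22 members, in liver for 13 and in brain for 5. This ranking of means was not made over all genes. It includes near ties, such as *Slco1a1* (liver minus kidney 0.03) and *Slc22a15* (liver minus brain -0.01). It also includes the members with no group mean above the median of the table. Between liver and brain, 11 members were called higher in liver (14.9% of all genes) and 5 higher in brain (17.5% of all genes). Between kidney and brain, 23 were called higher in kidney (15.5% of all genes) and 3 higher in brain (14.5% of all genes). Kidney was called above both other tissues in 18 members, liver above both in 3 and brain above both in 2. Such joint counts were not made over all genes, so they cannot be set against a background share.

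The brain pair were *Slc22a17* and *Slco1c1*. *Slc22a17*, known as the receptor of lipocalin-2, ran from 10.73 through 11.01 to 11.22 in brain, from 8.05 through 8.16 to 8.34 in kidney and from 7.11 through 7.20 to 7.50 in liver, and the 3 ranges were apart. *Slco1c1*, the thyroxine carrier of the blood-brain barrier, ran from 8.04 through 8.33 to 8.45 in brain, from 5.13 through 5.63 to 5.76 in liver and from 5.10 through 5.38 to 5.60 in kidney. *Slc22a8* was intermediate in brain, from 8.75 through 9.02 to 9.25, and above every liver array. Lower in brain than in both organs by the call were 8 members, among them *Slco1a1* (liver minus brain 7.22), *Slc22a28* (6.64) and *Slc22a30* (6.45). This joint count also has no share over all genes beside it. Choroid plexus markers averaged 6.44 to 7.06 on the brain arrays, 8.16 to 8.35 in kidney and 5.61 to 6.08 in liver, since several of them, such as *Kl* and *Folr1*, are kidney genes too.

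Members that lie side by side shared a leading tissue on some chromosomes and not on others. In the RefSeq gene order (GRCm38.p6) 24 of the 40 members lay in 5 groups of 3 or more with at most 10 other genes between 2 of them. On chromosome 6 the order was *Slco1c1*, *Slco1b2*, *Slco1a4*, *Slco1a1*, *Slco1a6* and *Slco1a5*, with liver minus kidney differences of 0.22, 7.77, 1.84, 0.03, -5.59 and 0.09. *Slco1c1* was highest in brain, *Slco1b2* in liver and *Slco1a6* in kidney. On chromosome 17, *Slc22a2* (-6.23) lay next to *Slc22a3* (0.71). The 3 OCTN genes on chromosome 11 were all called higher in kidney. On chromosome 19, *Slc22a19*, *Slc22a26*, *Slc22a27*, *Slc22a28*, *Slc22a29*, *Slc22a30*, *Slc22a8* and *Slc22a6* lay next to each other, with differences of -6.29, -2.72, -0.02, -0.89, -0.49, -0.45, -6.00 and -5.56. All 8 had their highest mean in kidney, but *Slc22a27*, *Slc22a29* and *Slc22a30* were not called, and *Slc22a27* (SE 0.08) was a tie. *Slc22a28* and *Slc22a30*, close relatives of the OAT genes found in rodents, were at 10.42 to 11.15 and 10.46 to 11.15 on the liver arrays and at most 4.24 and 4.70 on the brain arrays. Close relatives such as these can share probe sequence, which was not tested.

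**Figure D3:**
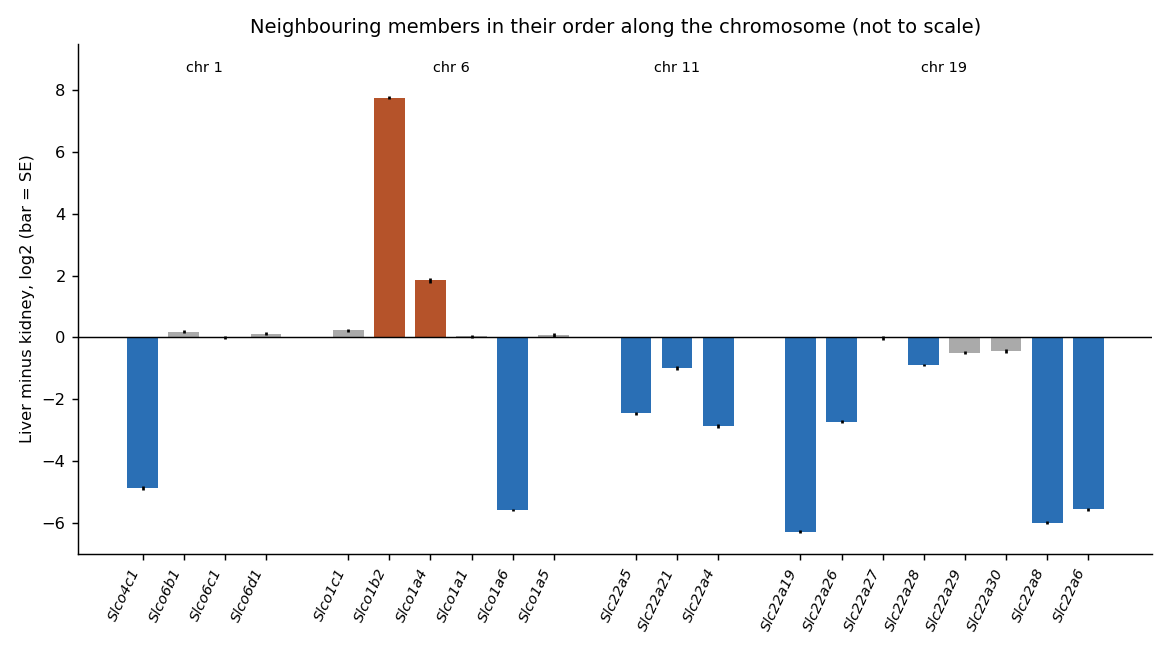
Liver minus kidney difference (log2, bar with SE) for the members of 4 of these groups (chromosomes 1, 6, 11 and 19), in their order along the chromosome and with no distance drawn. On chromosome 6 the bars run from 7.77 for *Slco1b2* to -5.59 for *Slco1a6* within 6 genes, and on chromosome 19 from -6.29 to -0.02 with none called on the liver side (brown, called higher in liver; blue, called higher in kidney; grey, not called).

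The genes that work beside these carriers also split by organ. Of a list of 30 partners (efflux pumps, bile acid carriers, scaffolds and transcription factors) 29 were measured, and 8 were called higher in liver (6.54% of all genes) and 11 higher in kidney (9.92% of all genes), with a median difference of -0.22 against 0.07 over all genes. The canalicular pumps *Abcb11* (6.28) and *Abcb4* (4.88), the bile acid uptake carrier *Slc10a1* (6.88) and the basolateral pump *Abcc3* (4.13) were higher in liver. The apical cation exporter *Slc47a1* (-2.13), the dicarboxylate carriers *Slc13a3* (-3.79) and *Slc13a2* (-3.54), which feed OAT exchange, and the scaffold *Pdzk1* (-2.79) were higher in kidney. So were the efflux pumps *Abcc4* (-1.82), *Abcg2* (-1.43) and *Abcb1b* (-0.77) and the bile acid carriers *Slc51a* (-2.95), *Slc51b* (-2.92) and *Slc10a2* (-1.65). Among the transcription factors, *Nr1i3* (4.85) and *Nr1i2* (2.71), the xenobiotic receptors, were higher in liver, and *Hnf4a* (-0.22) was not called.

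Few members differed between diets, and over the 15 diet contrasts 1 call was made. In liver no member was called for HCD against Control (0.245% of all genes called), HCD+Gl-1 against HCD (0.163%), HCD+Gl-2 against HCD (0.303%), HCD+Sim against HCD (0.258%) or HCD+Gl-2 against HCD+Gl-1 (0.172%), and 4, 5, 3, 5 and 10 of the 40 members had an unadjusted limma p under 0.05, against 10.3%, 16.6%, 12.6%, 11.7% and 19.8% of all genes. In kidney none was called for HCD against Control (0.0408% of all genes), HCD+Gl-1 against HCD (0.131%), HCD+Sim against HCD (0.14%) or HCD+Gl-2 against HCD+Gl-1 (0.181%), with 7, 6, 3 and 1 members under 0.05 unadjusted against 4.47%, 4%, 6.19% and 6.66% of all genes. For kidney HCD+Gl-2 against HCD 1 member was called (0.335% of all genes) and 11 were under 0.05 unadjusted, against 8.97% of all genes. In brain none was called for HCD against Control (0.0317% of all genes), HCD+Gl-1 against HCD (0.00906%), HCD+Gl-2 against HCD (0.0226%), HCD+Sim against HCD (0%) or HCD+Gl-2 against HCD+Gl-1 (0.00906%), with 2, 2, 1, 2 and 2 members under 0.05 unadjusted against 6.44%, 5.55%, 6.65%, 5.53% and 5.49% of all genes. The contrasts against HCD share the 3 HCD arrays of their tissue. An exact two-sided permutation of 3 arrays against 3 cannot give a p under 0.1.

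**Figure D4:**
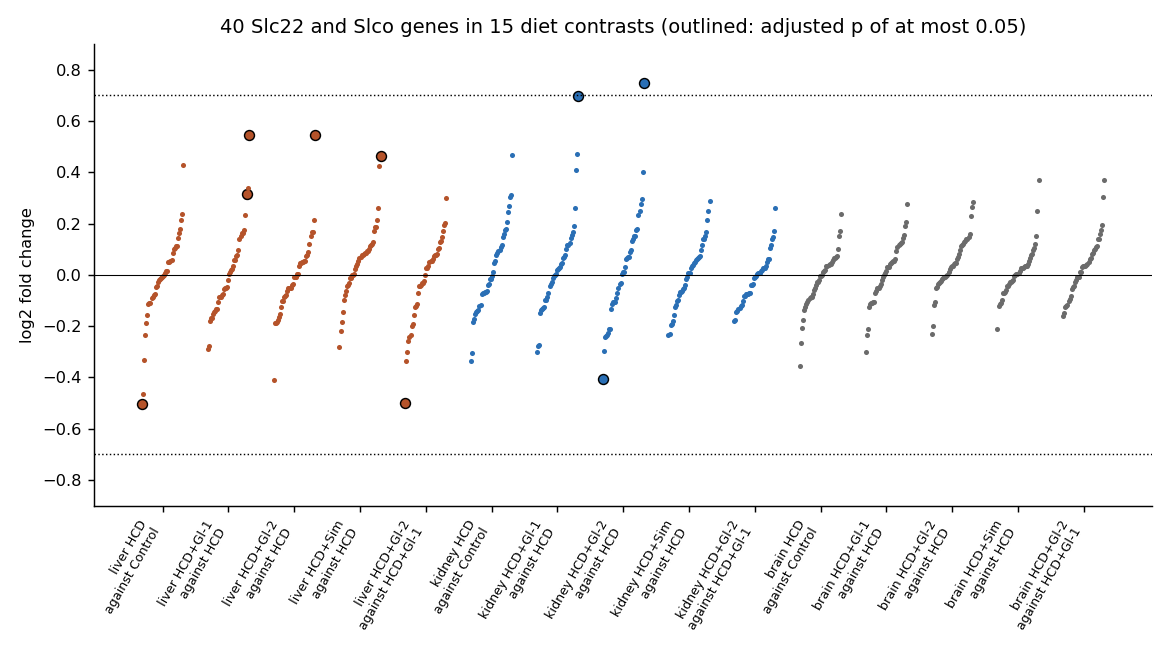
Log2 fold change of the 40 members in each of the 15 diet contrasts, with members ordered by value within a contrast. Outlined points passed an adjusted p of at most 0.05 and dotted lines stand at 0.7 in either direction. Only *Slc22a26* in kidney HCD+Gl-2 against HCD (0.75) lies outside the lines with an outline, and all brain points lie between -0.35 and 0.37.

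The called member was *Slc22a26*, a rodent relative of the OAT genes, in kidney. Its kidney arrays read 7.23, 7.34 and 6.87 in HCD, 8.03, 7.96 and 7.71 in HCD+Gl-2, and 7.96, 7.99 and 7.59 in HCD+Gl-1 (pools A, B and C). Every array of both extract groups stood above every HCD array, and the Control arrays, at 7.45, 7.59 and 7.42, stood between HCD and HCD+Gl-2. It rose by 0.75 ± 0.14 in HCD+Gl-2 against HCD (adjusted p = 0.000707). In HCD+Gl-1 the difference was 0.70 ± 0.14 (adjusted p = 0.00494), which lay just under the fold threshold, and this was the 1 member to pass the adjusted p alone there (0.267% of all genes). The extracts differed from each other by 0.05 ± 0.14, HCD from Control by -0.34 ± 0.14 (adjusted p = 0.908), and HCD+Sim from HCD by 0.21 ± 0.14.

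Whether the extract difference of *Slc22a26* was called turned on single arrays. Without pool C of kidney HCD the difference was 0.61 for HCD+Gl-2, and without pool A of HCD+Gl-2 it was 0.69. Both fell short of the fold threshold, while without pool C of HCD+Gl-1 the HCD+Gl-1 difference was 0.83 and was called. Over the fits that left out 1 array the values were 0.61 to 0.85 for HCD+Gl-2 and 0.56 to 0.83 for HCD+Gl-1. Markers of the other tubule segments (*Umod*, *Slc12a1*, *Slc12a3* and *Aqp2*) averaged 11.31 to 11.40 in kidney HCD, 11.56 to 11.63 in HCD+Gl-2 and 11.47 to 11.54 in HCD+Gl-1, with all 4 higher in both extract groups, none called, and median differences of 0.23 and 0.17. Proximal tubule markers averaged 12.10 to 12.16 in kidney HCD and 12.17 to 12.19 in HCD+Gl-2, and squamous epithelium markers averaged 5.94 to 6.06 and 6.16 to 6.19, with 1 of 6 (*Sprr1a*, 0.75) called. Their part in the result was not tested.

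In liver the same gene read 4.77, 4.70 and 4.41 in HCD and 4.41, 4.88 and 4.44 in HCD+Gl-2, and the arrays overlapped. The Control livers, at 4.96, 5.07 and 5.24, and the HCD+Sim livers, at 4.96, 5.25 and 4.95, lay above HCD, but neither difference passed the adjusted p (0.0799 and 0.127). Both differences include the liver arrays of raised foreign markers. Its liver level, from 4.41 to 5.25, was as low as values that cannot be told from background, against 6.87 to 8.03 in kidney. Liver and kidney came from the same mice of a diet, which the test treats as separate samples. The HCD+Gl-2 difference in liver minus that in kidney was -0.80 ± 0.19 (adjusted p = 0.033), the 1 member called of 40 against 0.326% of all genes. This call was lost in 8 of 12 fits that left out 1 array (values of -0.95 to -0.66, the latter without pool C of kidney HCD) and in a fit of the liver and kidney arrays alone (adjusted p = 0.0663). For HCD against Control, HCD+Gl-1 and HCD+Sim no member was called for such a difference, against 0.149%, 0.222% and 0.254% of all genes, and 4, 7 and 4 members had an unadjusted limma p under 0.05, against 7.13%, 10.4% and 9.59% of all genes. For HCD+Gl-2 the same count was 7, against 8.89%.

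*Slc22a5*, the carnitine carrier, was the member of liver that passed the adjusted p in the most diet contrasts, each time under the fold threshold. Its liver arrays read 7.97, 7.97 and 7.99 in Control and 7.36, 7.44 and 7.62 in HCD. They read 8.12, 7.68 and 8.26 in HCD+Gl-1, 8.03, 7.81 and 8.22 in HCD+Gl-2 and 7.84, 7.84 and 8.13 in HCD+Sim. All 3 HCD arrays stood below every array of the other 4 diets. HCD minus Control was -0.50 ± 0.12 (adjusted p = 0.013), the only member past the adjusted p there (1.34% of all genes). Against HCD the difference was 0.55 ± 0.12 in HCD+Gl-1 (adjusted p = 0.00598), 0.54 ± 0.12 in HCD+Gl-2 (adjusted p = 0.00544) and 0.46 ± 0.12 in HCD+Sim (adjusted p = 0.0303), and it was 1 of 2, 1 of 1 and 1 of 1 members past the adjusted p alone (2.48%, 1.7% and 1.1% of all genes). All 4 contrasts use the same 3 HCD arrays.

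The liver pattern of *Slc22a5* held its sign in every fit run, though some of the fits change the test alone and not the difference. Without pool B of HCD+Gl-1 the HCD+Gl-1 difference was 0.72 and was called. Leaving out the 4 liver arrays of raised foreign markers kept 1 Control and 1 HCD+Sim array. HCD minus Control was then -0.51 and HCD+Sim minus HCD was 0.65, and 1 array has no spread of its own for a test. The Control array that was kept still had skeletal muscle markers at 7.09, against 6.42 to 6.86 in the HCD and extract livers. With pools A and B alone the HCD+Sim difference was 0.44 (adjusted p = 0.0588). Hepatocyte markers averaged 13.16 to 13.20 in HCD, 13.19 to 13.20 in Control and 13.11 to 13.26 in the extract groups. In kidney the same gene read 10.13 to 10.23 in HCD and 10.26 to 10.36 in Control, a difference of -0.12 ± 0.12. It read 10.41 to 10.52 in HCD+Gl-1, 10.28 to 10.48 in HCD+Gl-2 and 10.26 to 10.45 in HCD+Sim. The HCD arrays were thus the lowest in kidney as well, but the gene passed the adjusted p in no kidney diet contrast. For HCD against Control the liver difference minus the kidney difference, -0.38 ± 0.16, did not pass the test (adjusted p = 0.578).

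**Figure D5:**
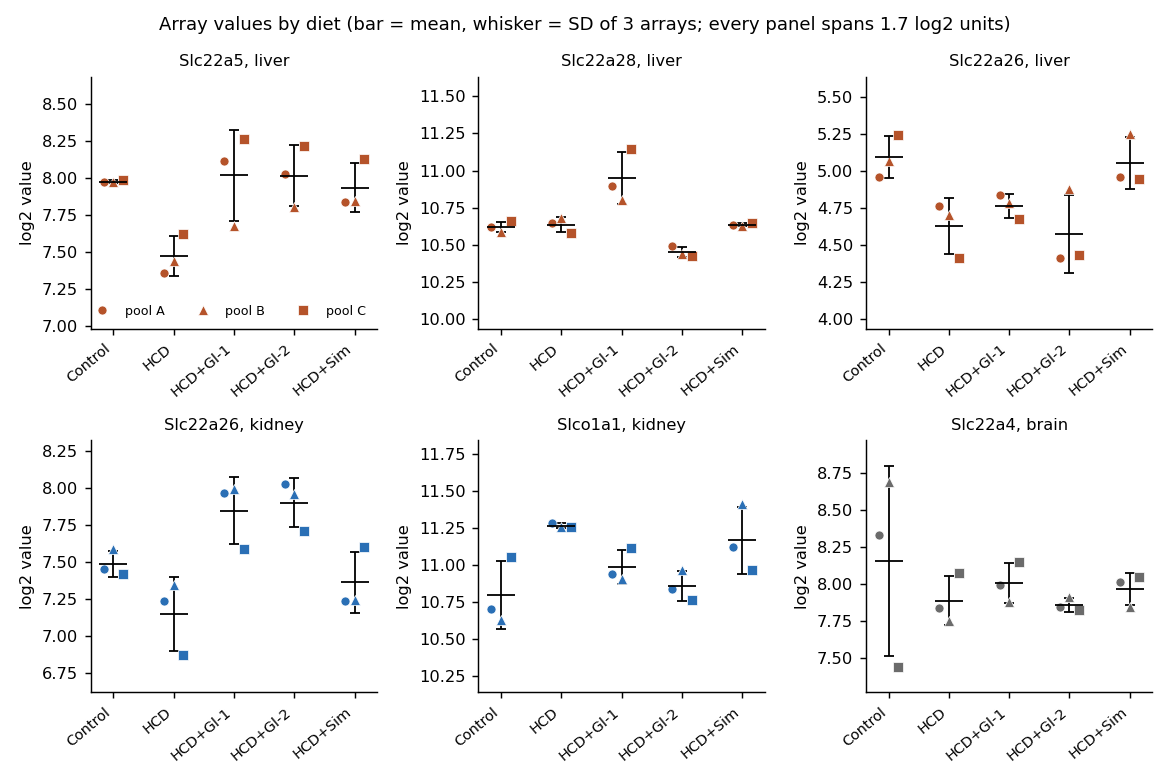
Log2 value of each array by diet for *Slc22a5*, *Slc22a28* and *Slc22a26* in liver, *Slc22a26* and *Slco1a1* in kidney and *Slc22a4* in brain, with bars at the mean and whiskers at the SD of the 3 arrays. The HCD livers are lowest for *Slc22a5* (7.36 to 7.62), the extract kidneys are above HCD for *Slc22a26* (7.59 to 8.03 against 6.87 to 7.34), and the Control brains spread widely for *Slc22a4* (7.44 to 8.69).

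Between the extracts in liver *Slc22a28* passed the adjusted p alone, short of the fold threshold, and 1 of 40 members is not above the share of all genes. Its arrays read 10.89, 10.80 and 11.15 in HCD+Gl-1, 10.49, 10.44 and 10.42 in HCD+Gl-2 and 10.65, 10.68 and 10.58 in HCD, so HCD+Gl-1 lay above HCD and HCD+Gl-2 below it with no overlap. HCD+Gl-2 minus HCD+Gl-1 was -0.50 ± 0.09 (adjusted p = 0.00108), the 1 member past the adjusted p alone (3.94% of all genes), and HCD+Gl-1 minus HCD was 0.31 ± 0.09 (adjusted p = 0.045). With pools A and B alone these were -0.38 (adjusted p = 0.0918) and 0.19 (adjusted p = 0.471). With the 4 liver arrays of raised foreign markers left out, none of them in these groups, the adjusted p of HCD+Gl-1 minus HCD was 0.0567 and that of the extract difference 0.00194. Pool C of HCD+Gl-1, at 11.15, was the highest of the 15 liver arrays.

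*Slco1a1* was lower in the HCD+Gl-2 kidneys than in HCD, short of the fold threshold. It read 10.70, 10.63 and 11.06 in Control, 11.29, 11.26 and 11.26 in HCD and 10.84, 10.97 and 10.77 in HCD+Gl-2, and HCD overlapped neither group. HCD+Gl-2 minus HCD was -0.41 ± 0.11 (adjusted p = 0.0483, with 2 members past the adjusted p alone against 0.996% of all genes) and -0.37 with pools A and B alone (adjusted p = 0.198), and its adjusted p was 0.0565 with the pool letter as a block. HCD minus Control was 0.47 ± 0.11 (adjusted p = 0.0586) and 0.60 with pools A and B alone (adjusted p = 0.0338). In liver the same contrasts gave -0.08 and -0.01, both ± 0.11.

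The largest differences of the contrasts without such a member were within the spread of their arrays or not past the test. In kidney they were *Slc22a21* for HCD+Sim against HCD (0.29 ± 0.15) and *Slco2b1* for HCD+Gl-2 against HCD+Gl-1 (0.26 ± 0.09, adjusted p = 0.307). In brain they were *Slco2a1* for HCD against Control (-0.35 ± 0.13), *Slc22a7* for HCD+Gl-1 against HCD (-0.30 ± 0.15), *Slco1a1* for HCD+Gl-2 against HCD (0.28 ± 0.11), *Slc22a30* for HCD+Sim against HCD (0.37 ± 0.14) and *Slc22a7* for HCD+Gl-2 against HCD+Gl-1 (0.37 ± 0.15). The adjusted p of these brain values ran from 0.505 to 0.913. *Slco2a1* read 7.47, 7.68 and 6.82 in the Control brains and 6.89 to 7.07 in the HCD brains. *Slc22a4* showed the same split, at 8.33, 8.69 and 7.44 in Control and 7.75 to 8.07 in HCD, so pool C lay below both pools it is said to mix. Choroid plexus markers averaged 6.89 to 7.06 in the Control brains and 6.74 to 6.84 in the HCD brains, and their part in these values was not tested. With pools A and B alone *Slc22a4* was called (-0.72, adjusted p = 0.000414), and with all arrays the value was -0.27 (adjusted p = 0.834).

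Among the partner genes 1 was called in a diet contrast. *Abcc3*, the pump that returns conjugates from hepatocytes to blood, rose by 1.07 ± 0.08 in liver HCD against Control, the only one called of the 29 measured, and its liver change exceeded its kidney change by 1.12 ± 0.11 (adjusted p = 5.7e-08). These values include the Control liver arrays of raised foreign markers and are not given without them.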

How the data were processed

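RNA of liver, kidney and brain pools was hybridised to Affymetrix mouse gene 1.0 ST arrays. Per the methods, the authors deposited log2 values after RMA, quantile normalization and ComBat adjustment for batches that are not named, with 1 probe set per gene, the one of widest interquartile range. The table has no detection flag, and the number of arrays limits precision. Members and gene lists were chosen with earlier results of these data known. Here limma 3.58.1 (R 4.3.3) fitted 15 group means to the 45 arrays and 22080 genes, with Benjamini-Hochberg adjustment within each contrast. A call needed an absolute log2 difference over 0.7, as in the study's methods, and an adjusted p of at most 0.05. Array values were given by rule for up to 8 members called highest on each side of liver against kidney, up to 4 called above both in brain, every member called between diets and otherwise the largest of each diet contrast, and subfamilies by tissue order. Other members were described after their values were seen. The alternatives left out pool C or each array in turn, used a block for the pool letter, the adjusted p alone, a filter on dim genes, a trended robust prior, renormalized values or fits of the compared tissues, and, added after seeing the data, left out 4 liver arrays. The tests were checked on simulated data. One member and some partner genes are counted but not reported by name here.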

Additional observations from a re-analysis of the deposited data

Results flagged for a closer look

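*Slc22a26* is listed because its HCD+Gl-2 against HCD differences in liver and kidney passed the test of their difference. The liver difference minus the kidney difference was -0.80 ± 0.19 on the log2 scale in the limma interaction test (adjusted p = 0.033), with HCD+Gl-2 above HCD in kidney in every array and overlapping HCD in liver. The liver values, from 4.41 to 4.88, cannot be told from background. The call was lost in 8 of the 12 fits that left out 1 array and in the fit of liver and kidney alone (adjusted p = 0.0663).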

How the results depend on the processing

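Of 469 recomputed counts of called members, 444 stayed within the limits of the reported count, 11 were lower and 14 higher, and of 891 recomputed differences of named members none changed sign. Some settings, such as the block for the pool letter and the adjusted p alone, leave the difference itself as it was. Most named members were also picked for a call or a large difference in these data. A kept sign was therefore partly fixed in advance. With the adjusted p alone, 12 members were higher in liver than in kidney, 37 differed between liver and brain, and the liver counts were 1 for HCD against Control, 2 for HCD+Gl-1, 1 for HCD+Gl-2, 1 for HCD+Sim and 1 for HCD+Gl-2 against HCD+Gl-1, while the kidney counts were 1 for HCD+Gl-1 and 2 for HCD+Gl-2. With pools A and B only, 1 member (*Slc22a4*) was called in brain HCD against Control. In a fit of liver and kidney alone, 0 members were called for the liver minus kidney difference in HCD+Gl-2. Leaving out 1 array gave 0 to 1 members for liver HCD+Gl-1, kidney HCD+Gl-1, kidney HCD+Gl-2 and that difference, and 23 to 25 between liver and kidney. The cause was not tested.

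Within a tissue, same-letter pools of different diets deviated together (correlation over 0.1) in 12 of 30 pairs in liver, 3 in kidney and 7 in brain. The median correlation in liver was 0.07 for the same letter and -0.04 for other letters. It was -0.03 and 0.00 in brain and -0.00 for both in kidney. The main fit did not pair samples by letter. Such pairs are of different mice, so they cannot show whether liver and kidney pools of a letter share mice. With the pool letter as a replicate block, 24 members were called between liver and kidney (5 and 19), 1 in kidney HCD+Gl-2 and 1 for the difference, and no count of calls changed, while *Slco1a1* in kidney HCD+Gl-2 against HCD went from an adjusted p of 0.0483 to 0.0565. Precision is limited by 3 arrays on 2 separate pools per group, by unnamed batches and by dim probe sets whose values cannot be told from background.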
